A study of Mus musculus with 6 samples.

Results

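Ankrd1, a stretch-responsive ankyrin repeat gene that YAP and TEAD proteins are known to switch on, was followed with 9 other genes of the same pathway in mouse ovarian surface epithelial (MOSE) cells. The 10 genes were chosen by name: the effectors Yap1, Tead1 and Tead4, the restraints Lats1, Amotl1, Amotl2 and Ptpn14, and the target genes Ankrd1, Ctgf (also called Ccn2) and Nuak2. They were found by symbol among 25006 Ensembl gene identifiers, and all 10 were among the 12313 genes with enough counts to be tested. RNA sequencing covered 3 libraries of MOSE-PAX8, a stable line that overexpresses the paired-box transcription factor PAX8, and 3 libraries of the comparison line MOSE-NEO. Both lines were grown under G418 at 0.05 mg/mL. Each group is 1 line, with no statement in the labels on whether it is a clone or a pool. Separate cultures behind the libraries are not stated either, and each p-value therefore reflects library-to-library spread that may be technical. The 10 genes were chosen with this same contrast known, so their differences between the lines are given as a description with no test.

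The Hippo pathway is a kinase relay that keeps the coactivator YAP, encoded by Yap1, and its relative TAZ out of the nucleus. The kinases LATS1 and LATS2 phosphorylate YAP, and the angiomotins and the phosphatase PTPN14 bind it and hold it in the cytoplasm. YAP that reaches the nucleus binds TEAD transcription factors and raises target genes, some of which, such as Lats2 and Amotl2, feed back on the pathway. In epithelia the relay responds to cell density, polarity, matrix stiffness and actin tension.

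The start-site regions of Ankrd1 and Amotl2 are shown because both are known YAP-TEAD targets, and the first was higher and the second lower in MOSE-PAX8. RefSeq's promoter table (GRCm38.p6; 250 bases before the start site and 50 after it) held 6 of the 10 genes, namely Ankrd1, Amotl1, Amotl2, Ptpn14, Yap1 and Lats1. Ctgf, Nuak2, Tead1 and Tead4 were not matched. The motif searched was the TEAD core GGAATG on both strands, so that CATTCC also counts, and capitals mark it.
Ankrd1, minus strand, chr19:36119795-36120094: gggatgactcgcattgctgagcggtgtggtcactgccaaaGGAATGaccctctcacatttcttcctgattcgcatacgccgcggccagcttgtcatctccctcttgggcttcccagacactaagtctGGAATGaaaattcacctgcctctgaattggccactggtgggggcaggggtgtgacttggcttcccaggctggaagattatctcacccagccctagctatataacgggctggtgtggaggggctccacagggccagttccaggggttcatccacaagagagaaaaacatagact
Amotl2, plus strand, chr9:102717554-102717853: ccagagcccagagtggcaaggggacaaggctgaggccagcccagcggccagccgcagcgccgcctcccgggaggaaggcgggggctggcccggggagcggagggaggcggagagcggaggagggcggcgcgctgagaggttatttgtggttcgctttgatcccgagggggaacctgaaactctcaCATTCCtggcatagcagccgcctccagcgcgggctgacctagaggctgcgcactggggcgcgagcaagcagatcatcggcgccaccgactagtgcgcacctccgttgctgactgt
The Ankrd1 region held 2 cores, which lay 210 and 123 bases before the start site. Amotl2 held 1 core at 65 bases before its start site, Ptpn14 held 1 at 146 bases and Yap1 held 1 at 141 bases. The Amotl1 and Lats1 windows did not contain these letters. The Amotl1 window (minus strand, chr9:14614951-14615250) lies well inside the gene, whose annotated span is 14541966 to 14645056. The Amotl2 window also lies inside its annotated gene, which begins at 102716672. Other start sites of these genes were not searched, so cores near them were not counted. Of 32851 windows of 300 bases in the table, 14.7% held the core at least 1 time and 1.36% at least 2 times. The SRF CArG box, the element bound by serum response factor, was searched as CC, then 6 letters that are A or T, then GG. This strict form was found in 1.63% of all windows and in none of the 6. It was not found in the window of the smooth muscle actin gene Acta2 either. Looser forms were not counted, so the lack of a match does not show that the element is absent. These are matches to letters and not measured binding sites.

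Library totals ranged from 30621528 to 36367825 counts in MOSE-PAX8 and from 23623762 to 32057173 counts in MOSE-NEO. Pax8 had 2570, 2973 and 3544 counts in MOSE-PAX8, against 0, 1 and 1 in MOSE-NEO. A single library of each line stood apart in its share of lincRNA counts, MOSE-PAX8 replicate 2 at 0.33% and MOSE-NEO replicate 1 at 0.317%, against 0.146% to 0.195% in the other 4. The 11 markers of the ovarian surface were all detected, with a summed level of 6459 to 7511 CPM (counts scaled to library size, with TMM factors) in MOSE-PAX8 and 11020.4 to 12214 CPM in MOSE-NEO. Among them Krt8 averaged 0.317 CPM in MOSE-PAX8 and 0.787 CPM in MOSE-NEO, Krt19 averaged 0.405 and 0.278 CPM, and Aldh1a2 had 1 count in MOSE-PAX8 and 3466 in MOSE-NEO. Summed levels in MOSE-PAX8 and MOSE-NEO were 5.34 to 7 and 7.17 to 13.6 CPM for 7 leukocyte markers, of which Adgre1 was at 0, and 0.189 to 0.493 and 0.348 to 0.996 CPM for 5 endothelial markers, of which Cdh5 was at 0. They were 349.6 to 391 and 409.7 to 509.5 CPM for 6 granulosa and theca markers, of which Fshr and Cyp19a1 were at 0, and 12395 to 13183 and 19895 to 23249 CPM for 5 fibroblast genes, of which Pdgfra had 6 and 10 counts. Single markers went against these sums. Among the 11 surface markers, 6 were called lower in MOSE-PAX8 and 1 higher, a share of 63.6% beside 33.9% of all tested genes. The higher one was Nr2f2, at 29.1 CPM in MOSE-PAX8 and 15.4 CPM in MOSE-NEO (edgeR adjusted p = 6.64e-05). Gata4 averaged 114 CPM in MOSE-PAX8 and 92.9 CPM in MOSE-NEO (edgeR adjusted p = 0.0615). Upk3b, Podxl and Krt7 carried most of the surface sum. Ptprc, the pan-leukocyte phosphatase CD45, had 196 counts in MOSE-PAX8 and 1 in MOSE-NEO (edgeR adjusted p = 0.000103), while Csf1r, which carried most of the leukocyte sum, had 428 and 921 counts (edgeR adjusted p = 0.00373). Foxl2, a granulosa transcription factor, had 182 counts in MOSE-PAX8 and 1 in MOSE-NEO (edgeR adjusted p = 0.000117), while Star, which carried most of the granulosa and theca sum, averaged 371 and 476 CPM (edgeR adjusted p = 0.0282). Col3a1, which carried most of the fibroblast sum, averaged 9397 CPM in MOSE-PAX8 and 17610.4 CPM in MOSE-NEO (edgeR adjusted p = 0.000365). Col1a1 (0.0884) and Dcn (0.466) were not called, so the share called was 33.3% of the 3 tested, beside 33.9% of all tested genes. Lum had 12 counts in MOSE-PAX8 and 3 in MOSE-NEO. The part of all these markers in the results below was not tested. In bulk RNA, fewer cells of a type and less RNA per cell cannot be told apart.

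The target genes had 3 different patterns. Ankrd1 (chromosome 19, 36111961 to 36120099, mm10, minus strand) had 5910, 4054 and 8964 counts in MOSE-PAX8 libraries 1 to 3, against 0, 1 and 0 counts in MOSE-NEO. In CPM this was 162, 127 and 276 in MOSE-PAX8, against 0, 0.0435 and 0 in MOSE-NEO. The gene was abundant in every library of one line and at the limit of detection in the other. The ratio of the lines was 15900, and its exact 95% counting interval of 2850 to 627000 is wide because a single MOSE-NEO count underlies it. In the MOSE-NEO libraries with 0 counts the upper limit is the level of 3 counts, 0.0953 CPM in replicate 1 and 0.0996 CPM in replicate 3, and such limits and intervals cover counting error only. Ankrd1 stood at percentile 90.6 of the tested genes in MOSE-PAX8 and at percentile 0.666 in MOSE-NEO. Of 125 tested genes with at most 3 counts over the MOSE-NEO libraries, it had the highest CPM in MOSE-PAX8. All 125 passed the count filter only through MOSE-PAX8, and Ankrd1 was chosen with this contrast known, so the rank is a description.

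Ctgf, a secreted matricellular protein and a widely used readout of YAP activity, was abundant in both lines. The gene (chromosome 10, 24595442 to 24598683) had 2168, 1499 and 2056 CPM in MOSE-PAX8, against 1896, 1264 and 2358 CPM in MOSE-NEO. The ranges overlapped, and the log2 fold change of 0.053 ± 0.22 (SE) was negative without MOSE-NEO replicate 2 (-0.17) and positive without MOSE-NEO replicate 3 (0.27). Ctgf stood at percentile 99.8 in each line. MOSE-NEO thus held 159837 counts of Ctgf beside 1 count of Ankrd1.

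Nuak2, an AMPK-related kinase that acts on actomyosin, was higher in MOSE-PAX8 like Ankrd1 but at a far lower level. The gene (chromosome 1, 132316126 to 132333488) had 4.95, 9.43 and 7.86 CPM in MOSE-PAX8, against 0.889, 1.78 and 0.365 CPM in MOSE-NEO. The lowest MOSE-PAX8 library was above the highest MOSE-NEO library. The ratio of means was 7.32 and the log2 fold change 2.92 ± 0.46 (SE). With single libraries left out, the log2 fold change ranged from 2.51 (without MOSE-NEO replicate 3) to 3.54 (without MOSE-NEO replicate 2).

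**Figure D1:**
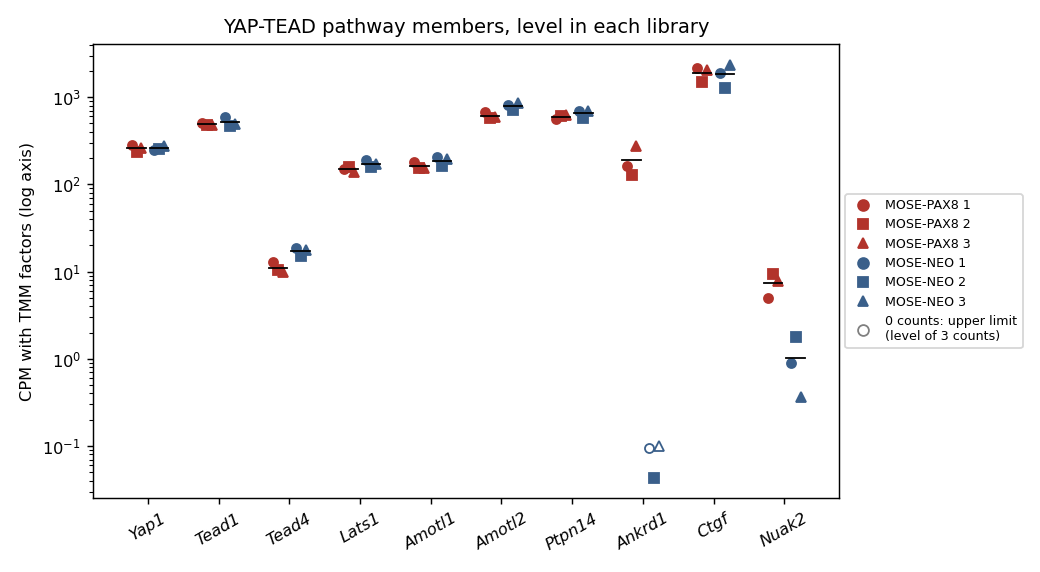
CPM of each of the 10 genes in every library on a log axis, with MOSE-PAX8 and MOSE-NEO in separate colours, shapes for the replicate number and a line at the mean of 3 libraries where none is at 0; libraries with 0 counts are drawn open at their upper limit of 3 counts. Ankrd1 and Nuak2 lie wholly higher in MOSE-PAX8, Tead4, Lats1 and Amotl2 wholly lower, and the other 5 genes overlap.

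The restraints of YAP among the 10 genes differed little in size between the lines. Lats2 and Amot, which are not among them, differed more and are given below. Amotl2, an angiomotin (chromosome 9, 102716672 to 102733418), had 668, 580.4 and 588 CPM in MOSE-PAX8, against 806, 716 and 849 CPM in MOSE-NEO. All MOSE-PAX8 libraries were lower, with a log2 fold change of -0.37 ± 0.099 (SE). Its relative Amotl1 (chromosome 9, 14541966 to 14645056) had 179, 153 and 153 CPM in MOSE-PAX8, against 205, 161 and 194 CPM in MOSE-NEO. The Amotl1 ranges overlapped, and its log2 fold change was -0.21 ± 0.11 (SE). Lats1, the kinase that phosphorylates YAP (chromosome 10, 7681214 to 7716460), had 151, 156 and 140 CPM in MOSE-PAX8, against 191, 159 and 169 CPM in MOSE-NEO. Its ranges only just failed to overlap, at 156 and 159 CPM, and the log2 fold change was -0.22 ± 0.09 (SE). Ptpn14 (chromosome 1, 189728268 to 189876695) had 565, 601 and 629 CPM in MOSE-PAX8, against 685, 580.2 and 690.4 CPM in MOSE-NEO. The Ptpn14 ranges overlapped, at a log2 fold change of -0.12 ± 0.096 (SE).

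Among the effectors, Yap1 and Tead1 overlapped between the lines and Tead4 did not. Yap1 (chromosome 9, 7931999 to 8004596) had 282, 236 and 261 CPM in MOSE-PAX8, against 248, 252 and 277 CPM in MOSE-NEO. Its log2 fold change of 0.0039 ± 0.091 (SE) had no stable sign, being -0.059 without MOSE-PAX8 replicate 1 and 0.068 without MOSE-PAX8 replicate 2. Tead1 (chromosome 7, 112679318 to 112906807) had 503, 478 and 477 CPM in MOSE-PAX8, against 592, 462 and 494 CPM in MOSE-NEO. The log2 fold change of Tead1 was -0.086 ± 0.1 (SE), and 0.017 without MOSE-NEO replicate 1, its highest library. Tead4 (chromosome 6, 128224288 to 128300823), known from the trophectoderm and from muscle, had 13, 10.5 and 9.86 CPM in MOSE-PAX8, against 18.4, 15.1 and 17.6 CPM in MOSE-NEO. All Tead4 values were lower in MOSE-PAX8, with a log2 fold change of -0.62 ± 0.13 (SE).

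Of the 10 genes, 2 were wholly higher in MOSE-PAX8, 3 wholly lower and 5 overlapping, where the libraries of 47.6% of all tested genes did not overlap (25.3% wholly higher and 22.2% wholly lower). The median absolute log2 fold change was 0.21 over the 10 genes and 0.24 over all tested genes. Without the 2 lincRNA-rich libraries, the log2 fold changes were 13.21 for Ankrd1, 2.64 for Nuak2, 0.21 for Ctgf, -0.33 for Amotl2, -0.19 for Lats1 and -0.52 for Tead4.

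Ankrd1 varied more within MOSE-PAX8 than the other 9 genes. Its coefficient of variation over the 3 libraries was 41.4%, against a median of 6.75% over 1377 tested genes within a factor of 1.5 of its level, of which 99.8% varied less. Its highest library had 2.17 times the CPM of its lowest. Library 2 was lowest and library 3 highest, an order that none of the other 9 genes had and that 20.2% of tested genes had. The actin and actin-binding genes of smooth muscle Acta2 and Tagln, named after their values were seen, had the same order. Acta2 had 544, 387 and 715 CPM in MOSE-PAX8, against 10.1, 14 and 12.7 CPM in MOSE-NEO. Tagln had 269, 189 and 392 CPM in MOSE-PAX8, against 3.27, 2.78 and 2.39 CPM in MOSE-NEO. The 5 smooth muscle markers summed to 782 to 1322 CPM in MOSE-PAX8 and 259 to 311 CPM in MOSE-NEO, while Myh11, which defines the mature cell, had 3 counts in each line. Acta2 and Tagln carried most of the MOSE-PAX8 sum. Of 4 markers tested, 3 were called higher and 1 lower, a share of 100% beside 33.9% of all tested genes. The lower one was Smtn, which carried most of the MOSE-NEO sum. Smtn averaged 214 CPM in MOSE-PAX8 and 278 CPM in MOSE-NEO (edgeR adjusted p = 0.0158). Pax8 had another order in MOSE-PAX8, with 70.3, 93.4 and 109 CPM. Library 2, the lowest for Ankrd1, is the lincRNA-rich library of MOSE-PAX8, and the part of that in the spread was not tested.

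**Figure D2:**
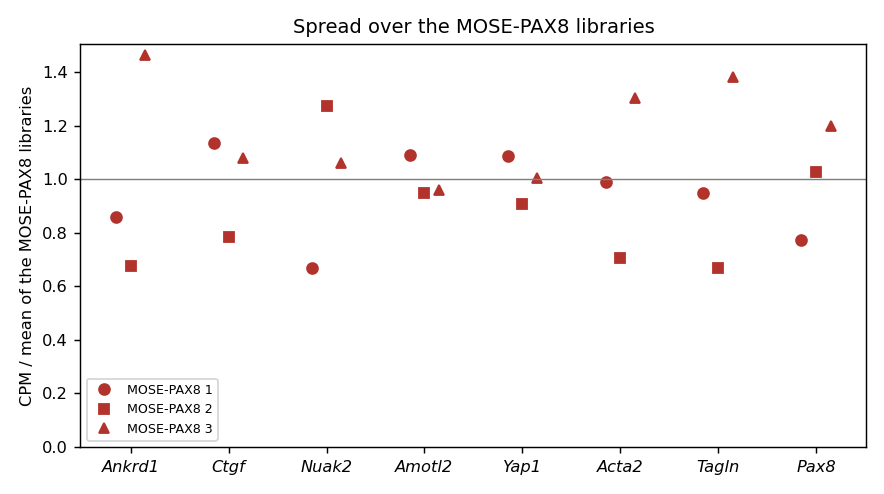
CPM in each MOSE-PAX8 library divided by the gene's mean over the 3 libraries, with shapes for the replicate number. Ankrd1, Acta2 and Tagln are lowest in library 2 and highest in library 3.

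The genes with the profile nearest to Ankrd1 over the 6 libraries, by Euclidean distance of log2(CPM + 1), were Blnk at 0.93, Nrep at 1.22, Pax8 at 1.84, Sprr2g at 2.79 and Glis3 at 2.83. Blnk, a B cell signalling adaptor, averaged 132 ± 27.1 CPM in MOSE-PAX8 (SD, n = 3) and had 2 counts in all in MOSE-NEO. Nrep averaged 209 ± 44.1 CPM in MOSE-PAX8 and 0.374 ± 0.152 CPM in MOSE-NEO (SD, n = 3 each). Glis3, a zinc finger transcription factor, averaged 58.5 ± 8.72 CPM in MOSE-PAX8 (SD, n = 3) and had 2 counts in MOSE-NEO. All 5 were nearly silent in MOSE-NEO, which follows from picking them by nearness to the Ankrd1 profile. Sprr2g has close paralogs, so its count is uncertain.

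Genes that flank Ankrd1 and Nuak2 were examined by position, and those given were picked after their values were seen. Rpp30, a ribonuclease P subunit gene 7.18 kb from Ankrd1, was higher at 32 CPM in MOSE-PAX8 and 24.1 CPM in MOSE-NEO (log2 fold change 0.41, edgeR adjusted p = 0.0129). Pcgf5, 228 kb away on the other side, had 78.0 CPM in MOSE-PAX8 and 79.6 CPM in MOSE-NEO (edgeR adjusted p = 0.84). No flanking gene of Ankrd1 came near its ratio. Around Nuak2 this was otherwise. Klhdc8a, 8.77 kb away, rose to 23.9 CPM in MOSE-PAX8, against 0.0366 CPM in MOSE-NEO (log2 fold change 9.24, edgeR adjusted p = 9.14e-07). Tmcc2, 22.8 kb away on the other side, rose to 8.96 CPM in MOSE-PAX8, against 4.33 CPM in MOSE-NEO (log2 fold change 1.04, edgeR adjusted p = 0.0024). Dstyk, the next gene beyond Tmcc2, had 97.1 CPM in MOSE-PAX8 and 99.0 CPM in MOSE-NEO (edgeR adjusted p = 0.805).

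Whole chromosome stretches were shifted between the lines, so each gene was also set against the median of up to 50 tested genes on each side. This local median was 0.22 on the log2 scale around Ankrd1, 0.27 around Tead1 and -0.061 around Nuak2. With it subtracted, the log2 difference was -0.35 for Tead1, -0.67 for Tead4, -0.25 for Amotl2 and -0.1 for Lats1.

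**Figure D3:**
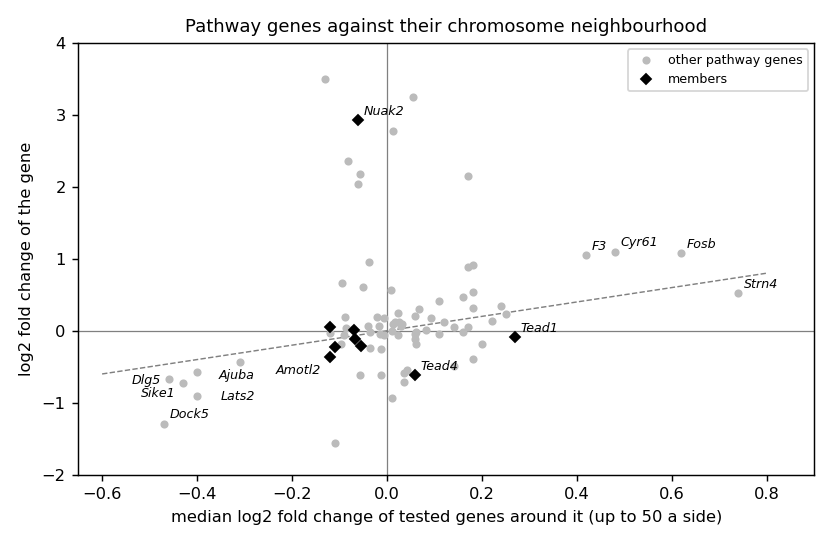
Log2 fold change (MOSE-PAX8 over MOSE-NEO) of each gene against the median of its chromosome neighbourhood; the dashed line is a gene equal to its neighbourhood, and Ankrd1, Amot and Tnik lie above the plotted range. Strn4 lies below the line at a local median of 0.74 although its own log2 fold change is 0.52.

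Levels of the nuclear effectors were compared per length, as TPM (length-scaled transcript abundance, over the union of exons). Tead1 was the most abundant TEAD gene, with 164 ± 4.56 TPM in MOSE-PAX8 and 168 ± 27.3 TPM in MOSE-NEO (SD, n = 3 each). Tead2 followed with 72.5 ± 10.7 TPM in MOSE-PAX8 and 48.0 ± 6.09 TPM in MOSE-NEO, then Tead3 with 33.2 ± 2.51 and 21.1 ± 2.12 TPM. Tead4 had 14.1 ± 1.92 TPM in MOSE-PAX8 and 21 ± 2.56 TPM in MOSE-NEO, so that Tead3 and Tead4 were apart in MOSE-PAX8 and overlapped in MOSE-NEO. Tead1 made up 57.8 ± 2.39% of the TEAD total in MOSE-PAX8 and 65 ± 2.78% in MOSE-NEO. Yap1 made up 38.5 ± 1.1% of Yap1 plus Wwtr1, the gene of TAZ, in MOSE-PAX8 and 37.4 ± 0.541% in MOSE-NEO. With the longest transcript as the length, the Yap1 share was 51.8% in MOSE-PAX8 and 50.7% in MOSE-NEO, so the order of Yap1 and Wwtr1 depends on the length used. So does the overlap of Tead3 and Tead4 in MOSE-NEO, where with the longest transcript Tead3 had 34.2, 28.6 and 29.3 TPM and Tead4 had 20.4, 16 and 18.5 TPM, with no overlap.

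**Figure D4:**
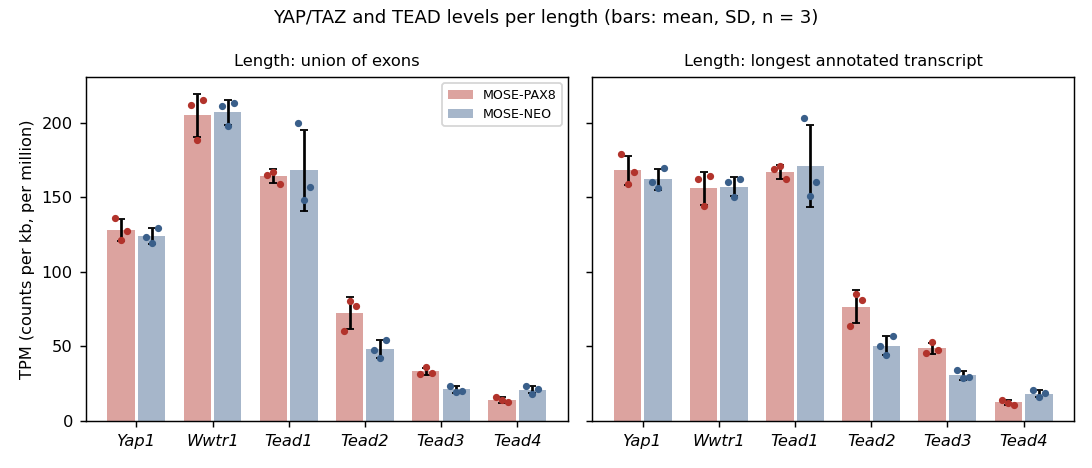
TPM of Yap1, Wwtr1 and the 4 TEAD genes in each library of MOSE-PAX8 and MOSE-NEO, with the union of exons and the longest annotated transcript as the length in separate panels. Tead1 is the highest TEAD gene in every library, and over the union of exons Tead3 and Tead4 overlap in MOSE-NEO.

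The rest of the pathway was read from the fit over all genes, in which 33.9% of tested genes passed an adjusted p of 0.05 (17.9% of all tested genes with a higher level in MOSE-PAX8, 16.1% with a lower one). Of TAZ, the other TEADs and the Vestigial-like cofactors, 5 of 7 genes were tested, 3 rose and none fell, with a median log2 fold change of 0.3. Only 1 was called with the local chromosome median removed, and 1 without the lincRNA-rich libraries. Tead3 rose to 48.8 ± 2.01 CPM in MOSE-PAX8, against 32 ± 2.27 CPM in MOSE-NEO (log2 fold change 0.61 ± 0.082, edgeR adjusted p = 0.000742). Tead2 rose to 75.7 ± 9.57 CPM in MOSE-PAX8, against 52.0 ± 7.14 CPM in MOSE-NEO (0.54 ± 0.12, edgeR adjusted p = 0.0102), but not with the local median removed (0.065) or without both lincRNA-rich libraries (0.0864). Vgll4, a TEAD cofactor that competes with YAP, had 91.5 CPM in MOSE-PAX8 and 74.2 CPM in MOSE-NEO and passed narrowly (edgeR adjusted p = 0.0479), but not without MOSE-PAX8 replicate 1 (0.167) or 3 (0.12) or MOSE-NEO replicate 1 (0.138) or 2 (0.166). Wwtr1 had 215 ± 21.8 CPM in MOSE-PAX8 and 224 ± 10 CPM in MOSE-NEO (edgeR adjusted p = 0.664), and Vgll3 had 408 ± 74.5 CPM and 403 ± 75.9 CPM (edgeR adjusted p = 0.954). Vgll1 and Vgll2 had 0 counts in every library.

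Of 20 Hippo kinases and activators, 3 rose and 2 fell, with a median log2 fold change of 0.04 beside 0.0083 over all tested genes. The share called was 25%, beside 33.9% of all tested genes. Frmd6, a FERM-domain activator of the relay, rose to 28.5 ± 1.34 CPM in MOSE-PAX8, against 6.43 ± 0.155 CPM in MOSE-NEO (2.15 ± 0.089, edgeR adjusted p = 1.7e-06). Wwc1, the scaffold KIBRA, rose to 149 ± 10.7 CPM in MOSE-PAX8, against 77.6 ± 10 CPM in MOSE-NEO (0.95 ± 0.1, edgeR adjusted p = 0.000256). The kinase gene Tnik rose to 5.13 ± 1.38 CPM in MOSE-PAX8, against 0.178 ± 0.0528 CPM in MOSE-NEO (4.82 ± 0.35, edgeR adjusted p = 2.71e-05). Lats2, a kinase of YAP and itself a YAP target, fell to 288 ± 31.1 CPM in MOSE-PAX8, against 541 ± 91.9 CPM in MOSE-NEO (-0.91 ± 0.14, edgeR adjusted p = 0.00127). Its stretch of chromosome 14 had a local median of -0.4, and the log2 difference was -0.51 with that removed (edgeR adjusted p = 0.0254). Map4k4 had 544 CPM in MOSE-PAX8 and 647 CPM in MOSE-NEO (edgeR adjusted p = 0.0405), and was not called without any one MOSE-PAX8 library (0.124, 0.0644 and 0.131) or without MOSE-NEO replicate 1 (0.0746) or 3 (0.132).

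Of 15 genes of the STRIPAK phosphatase complex and the Ajuba family, which oppose the kinases, 4 rose and 2 fell, with a median of 0.035. The share called was 40%, beside 33.9% of all tested genes. Strip2 rose to 1.17 ± 0.469 CPM in MOSE-PAX8, against 0.123 ± 0.0558 CPM in MOSE-NEO (3.25 ± 0.51, edgeR adjusted p = 0.00154). Strn4 was called higher (0.52 ± 0.07, edgeR adjusted p = 0.000773) and turned to -0.22 with its local median of 0.74 removed (edgeR adjusted p = 0.0479). Sike1 fell to 100.1 ± 4.63 CPM in MOSE-PAX8, against 165 ± 16.2 CPM in MOSE-NEO (edgeR adjusted p = 0.000498). The log2 fold change of Sike1 was -0.72, and -0.28 with its local median of -0.43 on chromosome 3 removed. Ajuba fell to 199.7 ± 4.9 CPM in MOSE-PAX8, against 296 ± 13.2 CPM in MOSE-NEO (edgeR adjusted p = 0.000601), but not relative to its stretch of chromosome 14 (0.133).

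Of 15 polarity and junction genes, 10 were tested, 1 rose and 4 fell, with a median of -0.22. The share called was 50% of those tested, beside 33.9% of all tested genes. Amot, the angiomotin that is no member of the 10, had 681 counts in MOSE-PAX8 (6.82 ± 1.39 CPM) and 0 in MOSE-NEO, at least 190-fold higher against 3 counts over the line (edgeR adjusted p = 3.4e-05). Patj, a scaffold of the Crumbs complex, fell to 15.1 ± 0.565 CPM in MOSE-PAX8, against 29.0 ± 1.0 CPM in MOSE-NEO (-0.94 ± 0.079, edgeR adjusted p = 6.14e-05). Mpp5, its partner PALS1, fell to 188 ± 14.4 CPM in MOSE-PAX8, against 246 ± 9.39 CPM in MOSE-NEO (edgeR adjusted p = 0.00672). Dlg5 fell to 53.6 ± 3.62 CPM in MOSE-PAX8, against 85.4 ± 4.93 CPM in MOSE-NEO (edgeR adjusted p = 0.000424), but not relative to its stretch of chromosome 14 (0.0877). Cdh1, the epithelial cadherin, had 3 counts in MOSE-PAX8 and 1 in MOSE-NEO.

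Of 17 further YAP-TEAD target genes, 6 rose, 4 fell and 7 were not called, with a median of 0.13. Rbms3 rose to 7.18 ± 0.936 CPM in MOSE-PAX8, against 0.628 ± 0.0938 CPM in MOSE-NEO (3.49 ± 0.21, edgeR adjusted p = 1.09e-05). Fjx1 rose to 6.21 ± 0.227 CPM in MOSE-PAX8, against 1.21 ± 0.159 CPM in MOSE-NEO (2.36 ± 0.18, edgeR adjusted p = 3.37e-05). The ligand gene Tgfb2 rose to 113 ± 21.9 CPM in MOSE-PAX8, against 27.6 ± 6.07 CPM in MOSE-NEO (2.04 ± 0.18, edgeR adjusted p = 8.18e-05). Cyr61, the close relative of Ctgf and named here after its values were seen, rose to 538 ± 33.8 CPM in MOSE-PAX8, against 250.4 ± 25.8 CPM in MOSE-NEO (1.1 ± 0.099, edgeR adjusted p = 8.72e-05), and by 0.62 relative to its stretch of chromosome 3. Dock5 fell to 145 ± 19.1 CPM in MOSE-PAX8, against 355 ± 43.5 CPM in MOSE-NEO (-1.29 ± 0.13, edgeR adjusted p = 0.000136). Its stretch of chromosome 14 had a local median of -0.47, and the log2 difference was -0.82 with that removed. Ccdc80 fell to 173 ± 8.08 CPM in MOSE-PAX8, against 284 ± 46.5 CPM in MOSE-NEO (-0.71 ± 0.12, edgeR adjusted p = 0.00192). Lats2, given above, is also in this list. Targets of the same factors were thus called in both directions. So were genes at large, with 17.9% of all tested genes called higher and 16.1% called lower. The share called was 58.8% in this list and 33.9% over all tested genes, and this difference was not tested.

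**Figure D5:**
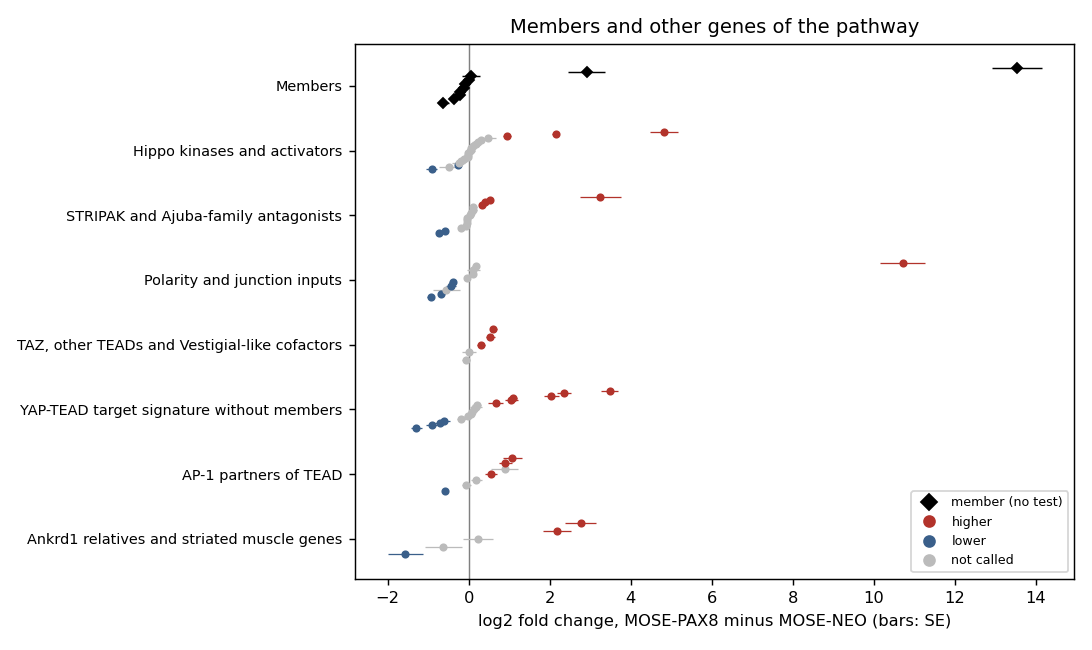
Log2 fold change (MOSE-PAX8 over MOSE-NEO) of the 10 genes (black diamonds, no test) and of the tested genes of each list, 1 point per gene, with bars for the SE and colours for genes called higher, called lower or not called; the far point among the polarity genes is Amot, whose fitted value has no MOSE-NEO count behind it. Further target genes lie on both sides of 0, with a median of 0.13.

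Of 7 AP-1 genes, whose proteins bind DNA beside TEADs, 3 rose and 1 fell, with a median of 0.56. The share called was 57.1%, beside 33.9% of all tested genes. Fos rose to 7.62 ± 0.442 CPM in MOSE-PAX8, against 4.06 ± 0.547 CPM in MOSE-NEO (edgeR adjusted p = 0.00207). Fosb rose to 2.24 ± 0.279 CPM in MOSE-PAX8, against 1.06 ± 0.111 CPM in MOSE-NEO (edgeR adjusted p = 0.00633), but not with its local median of 0.62 removed (0.169). Fosl2 fell to 471 ± 21.3 CPM in MOSE-PAX8, against 705 ± 37.2 CPM in MOSE-NEO (edgeR adjusted p = 0.000969).

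Ankrd1 is best known from heart and skeletal muscle, and 14 of its relatives and striated muscle genes were mostly at or near 0. Of these 5 were tested, 2 rose and 1 fell, a share of 60% called beside 33.9% of all tested genes. The natriuretic peptide gene Nppb rose to 2.27 ± 0.916 CPM in MOSE-PAX8, against 0.325 ± 0.0605 CPM in MOSE-NEO (edgeR adjusted p = 0.000776). Desmin (Des) rose to 2.06 ± 0.766 CPM in MOSE-PAX8, against 0.449 ± 0.076 CPM in MOSE-NEO (edgeR adjusted p = 0.00185). Ttn fell to 0.779 ± 0.42 CPM in MOSE-PAX8, against 2.27 ± 0.888 CPM in MOSE-NEO (edgeR adjusted p = 0.0237), but not without MOSE-PAX8 replicate 1 (0.072) or 3 (0.0861) or MOSE-NEO replicate 1 (0.0717) or 3 (0.0678). The closest relatives were at other levels than Ankrd1, with Ankrd2 at 2 counts in MOSE-PAX8 and 5 in MOSE-NEO, and Ankrd23 at 6.38 ± 3.76 and 9.75 ± 4.5 CPM (edgeR adjusted p = 0.34). Myh7 and Mypn had 0 counts in every library.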

How the data were processed

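Total RNA of 6 libraries was sequenced, 3 of MOSE-PAX8 and 3 of MOSE-NEO. The authors deposited raw counts for each gene and library. The submitters' processing notes list the build mm10 and the tools cutadapt 1.13, STAR, HTSeq 0.6.1p1 and DESeq2. Annotation, strandedness of counting and handling of multimapped reads: not given in the sources used here. Counts of overlapping genes and of near-identical copies are therefore uncertain. GENCODE M21 supplied symbols, lengths and coordinates for 24991 of 25006 identifiers, and the other 15 were kept without a symbol. Promoter sequences are from RefSeq.

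The lines were compared in edgeR 4.0.16 (R 4.3.3) by its quasi-likelihood test on all 6 libraries, with TMM factors, filterByExpr (minimum count 10) and Benjamini-Hochberg adjustment over all tested genes. Genes under 0.05 after adjustment were called. Errors beside CPM are SD over 3 libraries, and those beside log2 fold changes are SE. The SE is the absolute log2 fold change divided by the square root of the quasi-likelihood F statistic. limma 3.58.1 (voom) and DESeq2 1.42.0, other scalings and filters, a replicate block, removal of the local chromosome median and leaving out libraries were alternatives; leaving out both lincRNA-rich libraries was added after seeing the data. The code was tested on simulated data. The 10 genes and the lists were chosen with earlier results of these data known. Named were the 10 genes, Pax8, every gene of the TAZ list, up to 3 called genes per direction of the other lists by smallest adjusted p (2 for AP-1 and muscle), and the 5 profiles nearest to Ankrd1, passing over predicted genes; 1 gene that this rule names is not reported here.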

Additional observations from a re-analysis of the deposited data

How the results depend on the processing

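Over all genes, 4178 were called, between 2859 (without MOSE-PAX8 replicate 3) and 4272 (no low-count filter), and 3310 with the local chromosome median removed. The number called moved by more than 1.5 times in 3 lists: polarity and junction genes (5) came to 3 with the local median removed, TAZ, other TEADs and cofactors (3) to 1 with the local median removed and 1 without both lincRNA-rich libraries, and striated muscle genes (3) to 5 without the filter and 5 by DESeq2. With the longest transcript as length, the Tead1 share in MOSE-PAX8 was 54.9%, and the Yap1 share was 51.8% in MOSE-PAX8 and 50.7% in MOSE-NEO. Among tested genes named in the text, the sign turned for Strn4 (-0.22, local median removed), for Wwtr1 (0.03 with the local median removed, between -0.1 (without MOSE-PAX8 replicate 1) and 0.023 (without MOSE-PAX8 replicate 2) with single libraries left out, and 0.00045 without both lincRNA-rich libraries) and for Vgll3 (-0.065 with the local median removed, -0.097 and -0.02 without MOSE-PAX8 replicates 1 and 3, and with single libraries left out -0.14 at the lowest, without MOSE-NEO replicate 2, and 0.16 at the highest, without MOSE-PAX8 replicate 2); the cause was not tested. Of 659 alternative values of tested single genes, these 8 turned, 602 kept direction and side of the threshold and 49 kept direction only. Of 150 alternative values of the 10 untested genes, 11 turned in sign: 6 of Yap1 (over all settings -0.059 to 0.073), 3 of Ctgf (-0.17 to 0.27) and 2 of Tead1 (-0.35 to 0.028). Same-numbered libraries did not pair (correlations of deviations -0.487, 0.0761 and 0.504). Other pairs ranged from -0.735 (MOSE-PAX8 replicate 2 with MOSE-NEO replicate 3) to 0.68 (MOSE-PAX8 replicate 2 with MOSE-NEO replicate 1, the lincRNA-rich libraries). With the replicate number as a block 3933 genes were called, and Map4k4 (edgeR adjusted p = 0.0663) and Ttn (0.0504) were not. The Ankrd1 log2 fold change ranged from 12.76 (voom) to 15.57 (without MOSE-NEO replicate 2, which held its only count), so depth limits the size of its ratio.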
